A study of Mus musculus with 12 samples.

Results

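Genes of the mitochondrial genome were examined in adipocytes that carried wild-type or mutant PPARγ, the nuclear receptor that directs fat cell differentiation. All rows of the count table whose gene symbol begins with mt- were taken, which gave 37 of 55573 genes: 13 mRNAs, 2 rRNAs and 22 tRNAs. All 37 lie on the mitochondrial chromosome in the GENCODE M21 annotation of GRCm38.

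The cells came from the stromal vascular fraction (SVF), the non-adipocyte cells of digested fat, here from subcutaneous tissue of mice on a C57BL/6 background. WT mice carried unaltered PPARγ on both alleles. TA mice were homozygous for T166A, where alanine replaces a threonine that can be phosphorylated, and TD mice were homozygous for T166D, where aspartate stands for the phosphorylated residue. Both mutations were introduced by CRISPR-Cas9 into the whole animal, so every cell type of the culture carried them, and an amino acid change cannot be checked in counts per gene. All 3 genotypes had 4 libraries and received the same media. The differentiation cocktail of the first 4 days held 850 nM insulin, 1 nM triiodothyronine, 0.5 mM IBMX, 125 nM indomethacin and dexamethasone, and insulin and triiodothyronine were kept at these doses in the maintenance medium until harvest on day 8. The sources do not give the age of the mice or say whether each library came from a separate animal, so p-values measure the spread between these libraries.

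The mitochondrial genome is a small circle of DNA kept in many copies per cell. It encodes core subunits of complexes I, III and IV of the respiratory chain and of ATP synthase, together with the rRNAs and tRNAs that translate them, and all other mitochondrial proteins are encoded in the nucleus. Both strands are transcribed from promoters in the control region into long RNAs, and cleavage at the tRNAs that lie between the genes releases the single mRNAs and rRNAs. Adipocytes that take on beige features gain mitochondria, and the share of RNA that comes from the mitochondrial genome is one readout of this organelle.

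Libraries held 16553324 to 20324286 counts, with every one of the WT totals above all TA and TD totals. Adipocyte markers were present in every library, at a sum of 16874 to 29774 CPM (counts scaled to a common library size) over 12 genes. Markers of other cells were not equal between genotypes. The 12 skeletal muscle markers summed to 9.55 to 28.5 CPM in WT, 23.3 to 88.7 CPM in TA and 22.2 to 302 CPM in TD. TD replicates 3 and 4 had the most, with 302 and 171 CPM.

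Part of the mouse mitochondrial genome has a near-identical copy in the nucleus, and this bears on which members can be counted. Alignments to 7 annotated pseudogenes at chr1:24611535-24616197 (GRCm38, minus strand), each with at least 99% identity, lie between positions 6390 and 11042 of the mitochondrial chromosome. This span holds 4653 bases, and bases between the alignments were not compared. The coding sequences of mt-Co2, mt-Atp8, mt-Atp6, mt-Co3, mt-Nd3 and mt-Nd4l lie wholly inside this span, although mt-Atp8 was aligned over only 43 of its 204 bases. Of mt-Co1 31.3% and of mt-Nd4 63.6% of the bases lie inside it, and mt-Nd1, mt-Nd2, mt-Nd5, mt-Nd6 and mt-Cytb lie outside. The following stretches, written 5′ to 3′ from the GENCODE M21 transcripts, show what a read has to go by. The pairs were chosen after the alignments were seen. The first 60 bases of mt-Co2 and of its copy Gm28661 are the same, and those of mt-Nd3 and Gm28438 differ at 1 base, marked in capitals.
mt-Co2: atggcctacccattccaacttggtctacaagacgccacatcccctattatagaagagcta
Gm28661: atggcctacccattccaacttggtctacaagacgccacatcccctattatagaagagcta
mt-Nd3: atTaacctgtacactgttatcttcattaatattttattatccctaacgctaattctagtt
Gm28438: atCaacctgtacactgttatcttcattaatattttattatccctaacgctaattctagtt

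Counted from 1 at the first base of the mitochondrial gene, the substitution is T3C. Outside the span the closest annotated copies differ more. Bases 542 to 601 of mt-Cytb and the matching bases of Gm11410, a pseudogene on chromosome 4 with 92.9% identity over its alignment, differ at 4 places in capitals, T564C, C567T, G570A and C591T.
mt-Cytb: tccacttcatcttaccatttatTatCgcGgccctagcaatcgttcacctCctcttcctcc
Gm11410: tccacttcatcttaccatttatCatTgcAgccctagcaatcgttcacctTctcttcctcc

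The level per gene length followed this map, as the plot of levels in genome order shows. Over all 12 libraries, the 6 mRNAs inside the span had 2.51 to 45.8 CPM per kilobase of gene (here of the raw library total), with a median of 9.58, and the 5 mRNAs outside had 763 to 4478, with a median of 2197. The highest mRNA inside was far below the lowest outside. The 6 together held 0.114 to 0.200% of the mRNA counts of a library. The mitochondrial mRNAs of this stretch lie on the heavy strand, as do the mRNAs outside it other than mt-Nd6. The counting program HTSeq, in its default setting, leaves out reads that align equally well to several places, but the setting used is not given in the sources used here, and the part of this loss in the low levels was not tested. The 7 pseudogenes themselves held 402 to 1299 counts per library. Gm10925, the one with the most, is identical to mt-Atp6 over 678 aligned bases and had 118 to 390 counts. Values of the 6 mRNAs inside the span are therefore uncertain, and reads of the gene and of its nuclear copy cannot be told apart over identical bases.

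**Figure D1:**
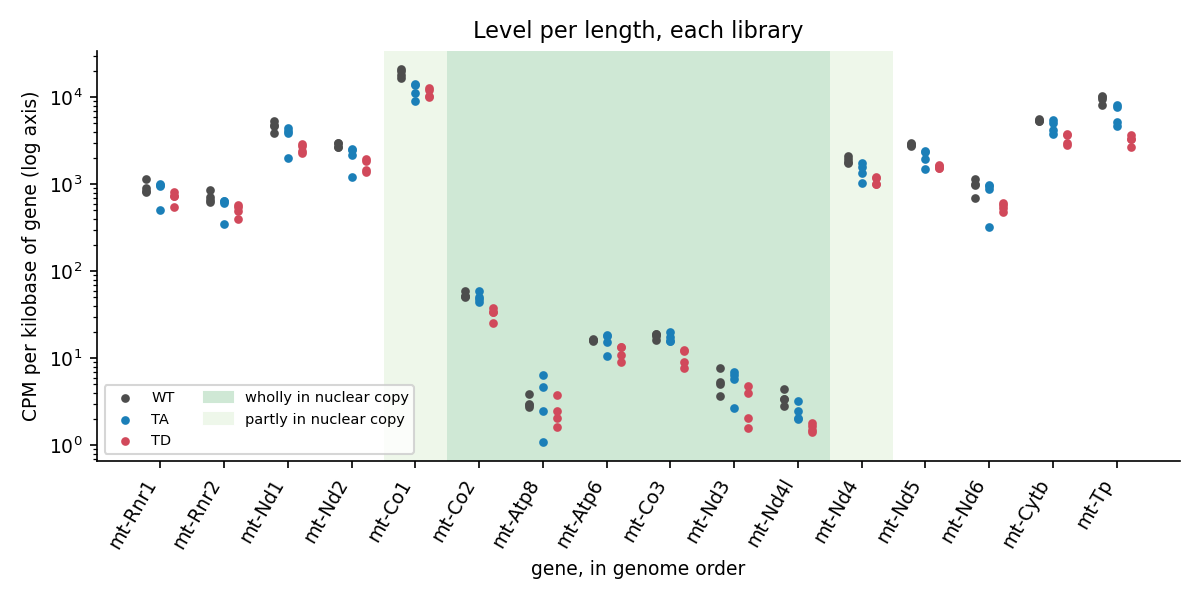
Level of the 16 members with enough counts to test, in CPM per kilobase of gene, from raw library totals (log axis), in genome order. Points are single libraries of WT, TA and TD. Shading marks genes wholly or partly in the span that holds the chromosome 1 alignments. The 6 mRNAs wholly inside it stood between 2.51 and 45.8 on average.

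On the same per-length scale mt-Co1, the catalytic subunit of cytochrome c oxidase, was highest, at 18889.6 ± 1873 (SD, n = 4) in WT, 12179 ± 2456 in TA and 11326 ± 1243 in TD. Next came mt-Tp, the tRNA for proline, then mt-Cytb, the mitochondrially encoded subunit of complex III, and mt-Nd1 of complex I. Their 12-library means were 6412, 4478 and 3623. The means of mt-Tp and mt-Cytb kept this order in WT (9502 and 5468) and TA (6470 and 4640), but in TD they did not differ beyond their spread (3265 ± 410 and 3326 ± 495). mt-Tp has only 67 bases, so its level per length depends on how reads that reach beyond the gene were counted. Its rank is therefore uncertain. The neighbours mt-Nd2 and mt-Nd5, at 2197 and 2165, did not differ beyond the spread between libraries. Both rRNAs lay lower, mt-Rnr1 at 834 and mt-Rnr2 at 590.

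Of the 22 tRNAs, 20 had no count in any library, which allows at most 0.148 to 0.181 CPM per library (3 counts, counting error only). The tRNA mt-Tc had 0 to 4 counts. Only mt-Tp was well covered, with 3236 to 14128 counts. It is encoded on the light strand at chrM:15356-15422 and has the control region on one side. The tRNA mt-Tf, on the heavy strand, borders the other end of the control region and had no count. The other tRNAs lie within a few bases of a gene on both sides, apart from mt-Tc and mt-Tn with 32 bases between them. The reference sequence of mt-Tp is shown because it is the only tRNA with a result.
mt-Tp: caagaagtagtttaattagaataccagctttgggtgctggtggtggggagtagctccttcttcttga

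Whether its counts come from the tRNA or from a longer RNA that runs through it cannot be told from counts per gene.

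The share of all counts that came from the 37 genes was highest in WT. It was 5.88, 4.92, 5.29 and 5.46% in the 4 WT libraries. In TA it was 4.37, 4.50, 3.62 and 2.74%, and in TD 3.57, 3.41, 2.94 and 2.86%. Every TA and TD library was below every WT library, while TA and TD overlapped. The means were 5.39 ± 0.401% (SD, n = 4) in WT, 3.81 ± 0.811% in TA and 3.20 ± 0.349% in TD. TA was the most variable genotype, and without TA replicate 4 its mean was 4.16%. The share is a sum over the members and was given no test.

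**Figure D2:**
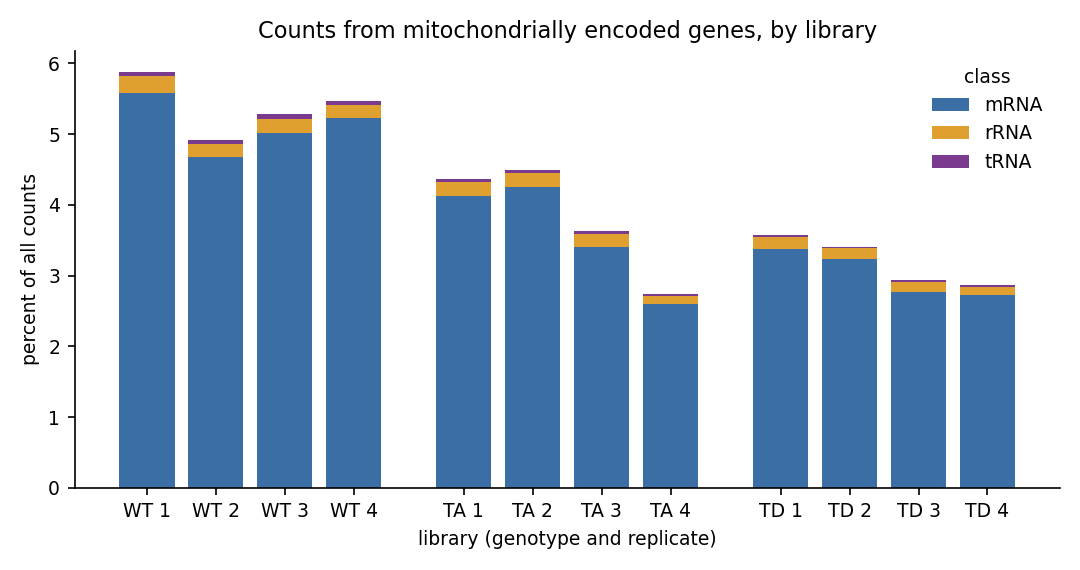
Percent of all counts of a library that came from the mitochondrially encoded mRNAs, rRNAs and tRNAs, stacked, for the 4 libraries of each genotype. The WT bars reach 4.92 to 5.88%, TA 2.74 to 4.50% and TD 2.86 to 3.57%.

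By class, the mRNAs made up 5.12 ± 0.375% of the WT total, 3.59 ± 0.758% of TA and 3.03 ± 0.331% of TD (SD, n = 4). The rRNAs made up 0.201 ± 0.0299, 0.171 ± 0.0450 and 0.147 ± 0.0225%. The tRNAs, in effect mt-Tp alone, made up 0.0637 ± 0.00656, 0.0434 ± 0.0118 and 0.0219 ± 0.00275%. The tRNA share of TD lay below that of every WT and TA library, while the rRNA share of TA overlapped with WT. The rRNA content of a library depends on how rRNA was removed or mRNA selected, and the sources used here do not describe that step.

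Single genes were compared on normalized counts by edgeR's quasi-likelihood test, with p-values adjusted over all 15117 genes that had enough counts. Of the 37 members 16 were tested, the 13 mRNAs, both rRNAs and mt-Tp. Between TD and WT 13 of these 16 fell and none rose at an adjusted p under 0.05. Over all genes 29.2% were called in this comparison, 14.2% as lower and 15.1% as higher. The libraries of 14 members did not overlap between TD and WT, all lower in TD, where 32.2% of all genes did not overlap and 16.4% were lower. The median log2 fold change of the 13 mRNAs was -0.84, beside 0.011 over all genes. Scaling by library totals alone left 13 members lower, but changed the split over all genes from 2142 lower of 4418 called to 1562 of 4397.

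**Figure D3:**
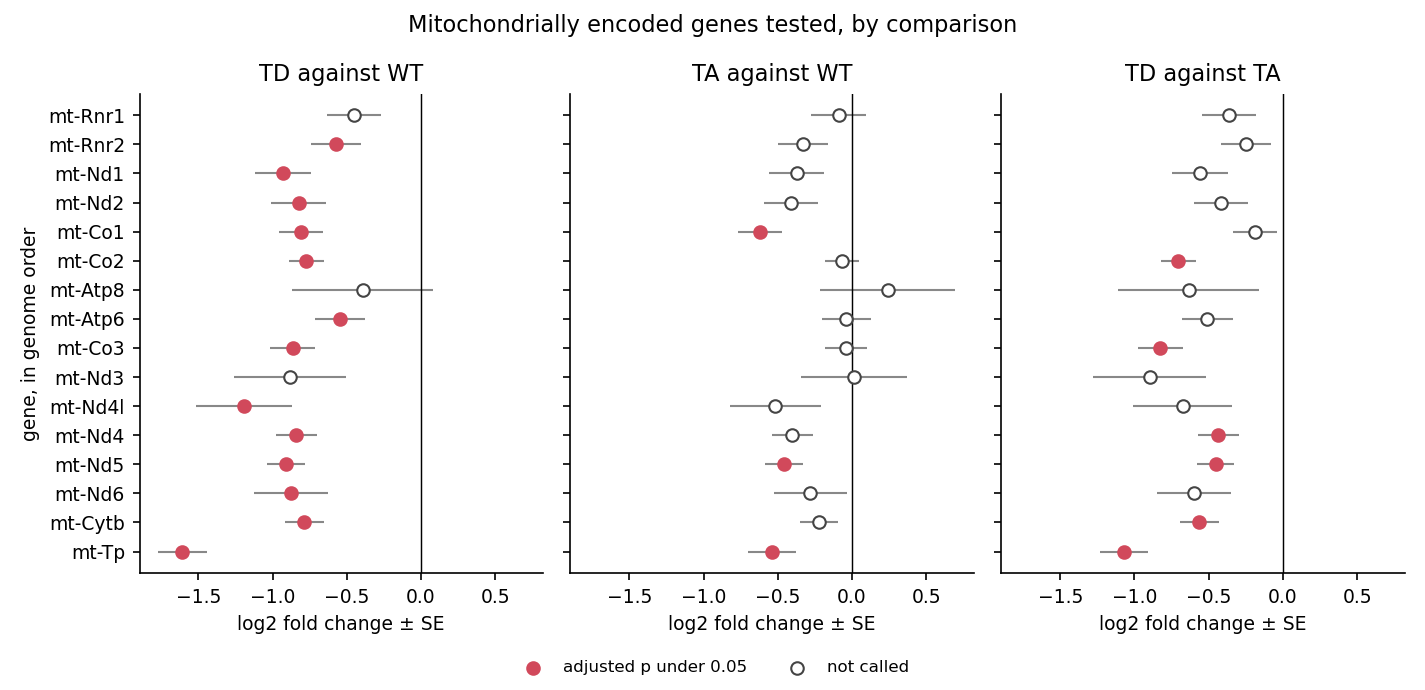
Log2 fold change with its standard error for the 16 members tested, in genome order, in TD against WT, TA against WT and TD against TA. Filled points passed an adjusted p under 0.05 (edgeR), which 13, 3 and 6 members did, all below 0.

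Complex I, which takes electrons from NADH, has 7 subunits encoded in the mitochondrion, and 6 of them fell in TD against WT. mt-Nd5, a subunit of its proton-pumping arm, had 5367, 5158, 5404 and 5152 CPM in WT, 4465, 4622, 3478 and 2786 CPM in TA and 2888, 2827, 2758 and 2742 CPM in TD. The 4 TD values were close together and all below the WT values. The TA values were spread widely below WT, and the lowest of them lay within the TD range. TD was lower than WT by a log2 fold change of -0.91 (SE 0.127, adjusted p = 0.000170), or 53.2% of the WT level. mt-Nd1, which lies next to the rRNAs, fell to 52.5% of WT (log2 fold change -0.93, adjusted p = 0.00177) and mt-Nd2 to 56.4% (-0.83, adjusted p = 0.00323). mt-Nd4 fell to 55.9% (-0.84, adjusted p = 0.000458).

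mt-Nd6, the only mRNA on the light strand, had 369 to 599 CPM in WT and 239 to 301 CPM in TD. It fell to 54.5% of WT (-0.88, SE 0.249, adjusted p = 0.0145), close to the heavy-strand neighbour mt-Nd5 whose end it overlaps by 14 bases. The counts of mt-Nd6 per 100 counts of mt-Nd5 were 9.55 ± 1.67 in WT, 10.5 ± 3.07 in TA and 9.79 ± 0.858 in TD (SD, n = 4), and all 3 genotypes overlapped. The strand setting of the counting is not given in the sources used here, so reads of one strand may have been counted for the other.

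The low-count mt-Nd4l fell to 43.8% of WT (log2 fold change -1.19, SE 0.322, adjusted p = 0.0109), from 0.842 to 1.35 CPM in WT to 0.410 to 0.510 CPM in TD, which is at most 26 counts in a library. The call was lost without the low-count filter (adjusted p = 0.0642) and without TD replicates 3 and 4 (adjusted p = 0.122). mt-Nd3 had a log2 fold change of -0.88 that did not pass (SE 0.378, adjusted p = 0.0914), and its WT and TD libraries overlapped. It passed without TD replicate 1 (adjusted p = 0.0459). Both lie inside the nuclear copy.

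Complex IV passes electrons to oxygen, and its 3 mitochondrially encoded subunits all fell in TD against WT. mt-Co1 had 33168, 25507, 28288 and 31518 CPM in WT and 18837, 17922, 15720 and 15172 CPM in TD. No TD library reached the lowest WT library. The log2 fold change was -0.81 (SE 0.149, adjusted p = 0.000916). mt-Co2, which takes electrons from cytochrome c, had 41.4, 34.5, 36.1 and 36.7 CPM in WT, and 24.6, 22.5, 22.9 and 17.0 CPM in TD (log2 fold change -0.77, adjusted p = 0.000301). mt-Co3 had 12.8 to 15.4 CPM in WT and 5.91 to 9.31 CPM in TD (-0.87, adjusted p = 0.000585). These 2 genes lie inside the nuclear copy and had a small fraction of the counts of mt-Co1.

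For complex III, mt-Cytb had 6604, 6296, 6129 and 6335 CPM in WT, 6113, 6540, 4726 and 4351 CPM in TA and 4163, 4092, 3183 and 3268 CPM in TD. The TD libraries were below all others. TA replicates 1 and 2 were near the WT level, and TA replicates 3 and 4 lay between the WT and TD ranges. TD was 58.0% of WT (log2 fold change -0.79, adjusted p = 0.000470). Of the ATP synthase subunits, mt-Atp6, part of the proton channel, fell to 68.5% of WT (-0.55, SE 0.171, adjusted p = 0.0238). This call was lost when WT replicate 1 or 4 or TD replicate 3 or 4 was left out, with an adjusted p of up to 0.0856. mt-Atp8 had 4 to 22 counts per library and a log2 fold change of -0.39 (SE 0.476, adjusted p = 0.577).

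Both rRNAs had smaller log2 fold changes in TD against WT than the mRNAs other than mt-Atp6 and mt-Atp8. mt-Rnr2, the RNA of the large mitochondrial ribosomal subunit, had 1376, 972, 1132 and 1073 CPM in WT and 873, 825, 752 and 610 CPM in TD, and fell to 67.2% of WT (log2 fold change -0.57, SE 0.169, adjusted p = 0.0180). The call was lost without WT replicate 1 (adjusted p = 0.0707) or TD replicate 4 (adjusted p = 0.0667). mt-Rnr1, the RNA of the small subunit, had a log2 fold change of -0.45 that did not pass (SE 0.184, adjusted p = 0.0755), but passed without TA replicate 4 (adjusted p = 0.0128) and without the low-count filter (adjusted p = 3.81e-05). Per 100 mRNA counts the rRNAs had 3.91 ± 0.351 counts in WT and 4.85 ± 0.448 in TD, and these overlapped.

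The largest fall of any member was that of mt-Tp. It had 686, 633, 699 and 561 CPM in WT, 545, 570, 343 and 320 CPM in TA and 215, 174, 241 and 216 CPM in TD. All 4 TD libraries were well below the lowest library of the other genotypes. TD was at 32.8% of WT, a log2 fold change of -1.61 (SE 0.166, adjusted p = 3.34e-05). The fall was also seen within the mitochondrial counts. The ratio of mt-Tp to 100 mRNA counts was 1.25 ± 0.159 in the WT libraries, 1.20 ± 0.122 for TA and 0.733 ± 0.151 for TD (SD, n = 4), with no overlap of TD with either. Set against mt-Cytb alone, mt-Tp had 8.86 to 11.4 counts per 100 for WT, 7.25 to 8.92 for TA and 4.26 to 7.57 for TD, so that TD was below WT but overlapped with TA. The difference between the fall of mt-Tp and that of the mRNAs was not tested across genes.

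In TA against WT, which uses the same WT libraries, 3 of the 16 members fell and none rose, where 11.1% of all genes were called, 4.41% as lower and 6.72% as higher. The median log2 fold change of the mRNAs was -0.28. The libraries of 3 members, mt-Nd2, mt-Co1 and mt-Nd5, did not overlap, all lower in TA, where 13.6% of all genes did not overlap and 5.85% were lower. mt-Co1 had 22464, 23161, 17190 and 14229 CPM in TA and fell to 65.0% of WT (log2 fold change -0.62, SE 0.148, adjusted p = 0.0121). mt-Nd5 fell to 72.8% (-0.46, SE 0.126, adjusted p = 0.0263) and mt-Tp to 68.9% (-0.54, SE 0.162, adjusted p = 0.0413). The mt-Co1 call was kept whichever library was left out. That of mt-Nd5 was lost without WT replicate 1, WT replicate 3 or TA replicate 3, and that of mt-Tp without any of WT replicates 1, 2 and 3, TA replicates 3 and 4, and TD replicates 1 and 4. The adjusted p was then between 0.0510 and 0.105. The count of members called was 1 without WT replicate 1, WT replicate 3 or TA replicate 3. In the same order, 460, 529 and 593 of all genes were then lower.

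The members that did not pass in TA against WT ran from a log2 fold change of -0.52 for mt-Nd4l to 0.24 for mt-Atp8. The 5 mRNAs outside the span of the nuclear copy had a median of -0.37, with 1 called, and the 6 inside had -0.039, with none called. Between TD and WT the same medians were -0.88 and -0.82, with 5 of 5 and 4 of 6 called. The gap between genes inside and outside the copy in TA was not tested. mt-Nd3, mt-Rnr1, mt-Atp6, mt-Atp8 and mt-Co3 had values near 0 or wide errors, and their sign changed when 1 library was left out.

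TA replicate 4 was the lowest TA library in several members, although none of those named here was flagged by the outlier test described below. It had 1945 CPM of mt-Nd1 where the others had 3650 to 4424 CPM, and 167 CPM of mt-Nd6 where the others had 447 to 536 CPM. mt-Rnr1 was 488 CPM against 898 to 1003 CPM. In mt-Co2 and mt-Co3 it was close to TA replicate 3, with 30.8 and 32.1 CPM of mt-Co2. In mt-Tp it had 320 CPM where TA replicate 3 had 343 CPM. Its adipocyte markers, at 27816 CPM, and its muscle markers, at 23.9 CPM, were within the range of the other TA libraries.

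In TD against TA 6 of the 16 members fell and none rose, where 16.7% of all genes were called, 9.37% as lower and 7.33% as higher. The median of the mRNAs was -0.56. mt-Co3 fell to 56.4% of TA (log2 fold change -0.83, SE 0.150, adjusted p = 0.00160) and mt-Co2 to 61.4% (-0.70, SE 0.120, adjusted p = 0.000998). mt-Cytb fell to 67.7% (-0.56, SE 0.130, adjusted p = 0.00818), mt-Nd4 to 73.9% (-0.44, adjusted p = 0.0403) and mt-Nd5 to 73.1% (-0.45, adjusted p = 0.0215). With each of the 12 libraries left out in turn, the mt-Nd4 call was lost 6 times and that of mt-Nd5 4 times. The calls of mt-Cytb, mt-Nd4 and mt-Nd5 were lost without both TD replicates 3 and 4 (adjusted p = 0.181, 0.357 and 0.189). mt-Tp fell to 47.6% of TA (-1.07, SE 0.164, adjusted p = 0.000413). The libraries of 5 members did not overlap, all lower in TD, where 19.9% of all genes did not overlap and 10.6% were lower. mt-Co1, the most abundant member, was at 87.8% of TA (-0.19, SE 0.148, adjusted p = 0.414), and its TA and TD libraries overlapped. Without TA replicate 4 the count of members that fell was 12, and over the other libraries left out in turn it was 4 to 7. Over all genes 1200 of 15376 were lower without TA replicate 4, and 843 to 1751 genes over the other libraries left out.

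The makeup of the mRNA counts differed in TA, as the plot of 6 mRNAs by share shows. mt-Co1 took 52.2, 52.4, 51.2 and 54.2% of the counts of the 13 mRNAs in TA, against 54.9 to 58.6% in WT and 57.4 to 58.3% in TD. Every TA library was below every other. mt-Cytb took 14.9 ± 1.15% in TA, 12.3 ± 0.901% in WT and 12.5 ± 0.584% in TD (SD, n = 4). mt-Nd4 took 5.45 ± 0.173, 5.10 ± 0.138 and 5.07 ± 0.0519% in the same order, and mt-Co3 0.0387 ± 0.00623, 0.0276 ± 0.00207 and 0.0266 ± 0.00330%. In these 3 genes every TA library was above every WT and TD library. Of the 6 mRNAs plotted, mt-Co2, mt-Atp6 and mt-Co3 lie wholly inside the span of the nuclear copy, so their values are uncertain. mt-Co1 and mt-Nd4 lie partly inside it. Between TD and WT the shares of every mRNA overlapped. The shares add up to the whole, so they are not independent of each other, and they were given no test.

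**Figure D4:**
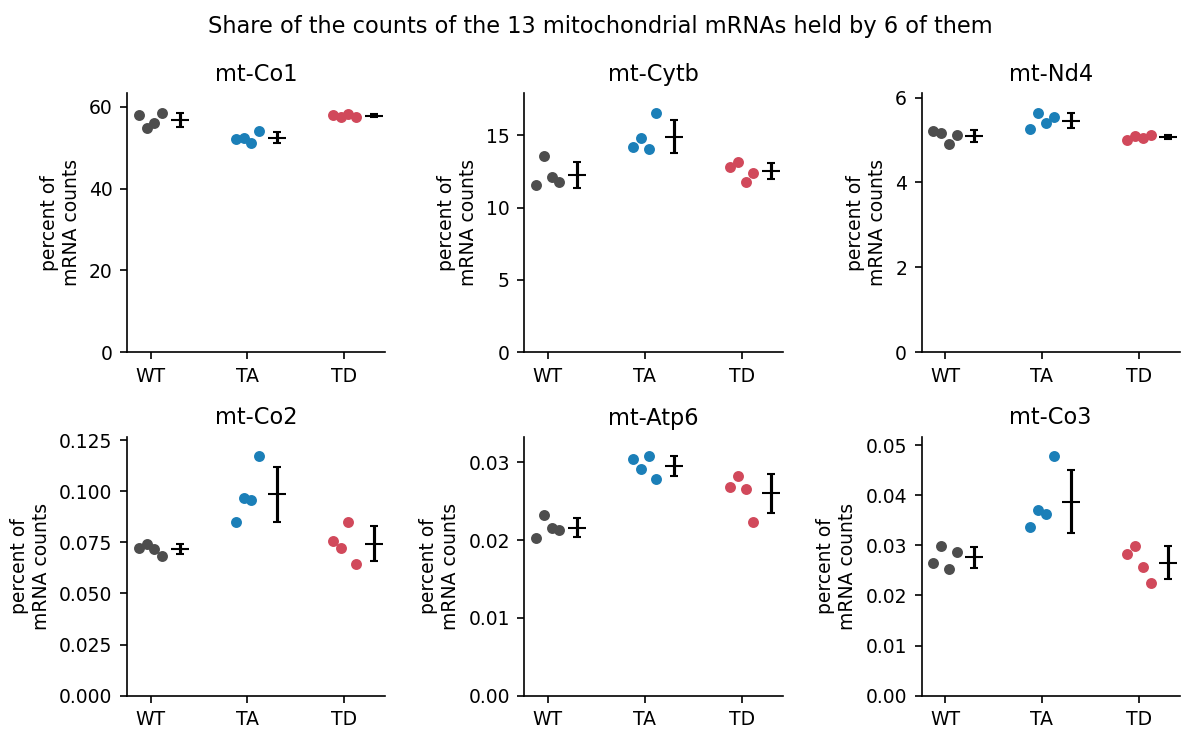
Percent of the counts of the 13 mitochondrial mRNAs held by the 6 whose TA and WT libraries did not overlap, in each library of WT, TA and TD, with the mean and SD (n = 4) beside the points. mt-Co1 is below 54.9% only in TA, and mt-Cytb is 14.9% on average in TA against 12.3% in WT and 12.5% in TD. mt-Co2, mt-Atp6 and mt-Co3 lie wholly inside the span of the nuclear copy, and mt-Co1 and mt-Nd4 partly.

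A ratio between the rRNAs also set WT apart. mt-Rnr1 had 81.0, 79.1, 77.4 and 77.4 counts per 100 counts of mt-Rnr2 in WT, 93.4, 94.2, 94.8 and 86.8 in TA and 85.6, 82.4, 91.2 and 84.2 in TD. Every TA and TD library was above every WT library, and TA and TD overlapped. Both rRNAs lie at the start of the heavy-strand transcript, with mt-Rnr1 first.

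Transcription, processing and upkeep of the mitochondrial genome depend on nuclear genes, and 59 of 61 listed ones could be tested. In TD against WT 25 of them fell and none rose, with a median log2 fold change of -0.24, where 14.2% of all genes were lower. In TA against WT 6 of 59 fell, where 4.41% of all genes were lower, with a median of -0.12. In TD against TA 5 of 59 fell, a share below the 9.37% of all genes, with a median of -0.13. None was higher in these 2 comparisons. The cleavage enzymes and their partners had 7 of 11 lower in TD against WT, the enzymes that modify rRNA and tRNA 7 of 16, and the transcription factors and polymerase 2 of 9. With 1 library left out the TD against WT count was 16 to 26, where 1489 to 2271 of all genes were lower. Without both TD replicates 3 and 4 it was 5 of 59, where 679 of all 15673 genes were lower. It was 16 without TD replicate 4. Scaling by library totals alone gave 16 lower and 1 higher, where 1562 of all 15117 genes were lower. For TA against WT the count was 1 without TA replicate 1, 2 without TA replicate 3 or WT replicate 1, 3 without WT replicate 4 and 10 without TA replicate 2. For TD against TA it was 3 without TA replicate 2, TD replicate 3 or TD replicate 4, and 9 without TA replicate 3. Without TA replicate 4 it was 6 lower and 1 higher. With 1 library left out, 460 to 757 of all genes were lower in TA against WT and 843 to 1751 in TD against TA.

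The largest of these falls in TD against WT was that of Slc25a33, a carrier that brings pyrimidine nucleotides into mitochondria, from 29.7 ± 3.36 CPM in WT to 11.7 ± 2.46 CPM in TD (log2 fold change -1.34, SE 0.178, adjusted p = 0.000122). It had 22.5 ± 5.96 CPM in TA and fell in TD against TA as well (-0.94, adjusted p = 0.00229). Mrm2 and Mrm3, which methylate mt-Rnr2, fell by log2 fold changes of -0.69 (adjusted p = 0.000928) and -0.62 (adjusted p = 0.00539). In TA against WT the largest were Mettl15, a methyltransferase of mt-Rnr1 (-0.59, adjusted p = 0.0308), Cdk5rap1, which modifies tRNAs (-0.39, adjusted p = 0.0276), and Trmt10c, a subunit of the enzyme that cuts at the 5′ ends of tRNAs (-0.37, adjusted p = 0.0205). In TD against TA, besides Slc25a33, Hsd17b10, another subunit of that enzyme (-0.75, adjusted p = 0.000565), and Slirp, which stabilizes mitochondrial mRNAs (-0.54, adjusted p = 0.0101), fell the most.

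Nuclear-encoded subunits of the same complexes were set beside the mitochondrial ones. Between TD and WT 72 of 75 fell, with a median log2 fold change of -0.70, where 14.2% of all genes were lower. Complex I had nuclear and mitochondrial medians of -0.69 and -0.88, complex IV of -0.81 and -0.81, and ATP synthase of -0.55 and -0.47. For complex III the nuclear median was -0.72 and mt-Cytb had -0.79. All 4 nuclear subunits of complex II, which has no mitochondrially encoded subunit, fell, with a median of -0.65. ATP synthase had the smallest median in both genomes, a difference that was not tested. Its mitochondrial median covers only mt-Atp6 and mt-Atp8, whose values are uncertain because both lie inside the span of the nuclear copy. mt-Atp8 had 4 to 22 counts per library.

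In TA against WT 1 of the 75 nuclear subunits fell and none rose, with a median of -0.13, while mt-Co1 and mt-Nd5 fell. This nuclear share was below the 4.41% of all genes called lower. For complex I the nuclear median was -0.13 and the mitochondrial -0.40, with 0 of 35 and 1 of 7 called. Without TA replicate 2 the count was 8, where 757 of all 15431 genes were lower. Between TD and TA 70 of the 75 fell, with a median of -0.55, and 5 of the 13 mitochondrial mRNAs, where 9.37% of all genes were lower. Without TD replicates 3 and 4 the nuclear count was 28, where 448 of all 15673 genes were lower. Whether the genomes differed in their response was not tested.

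**Figure D5:**
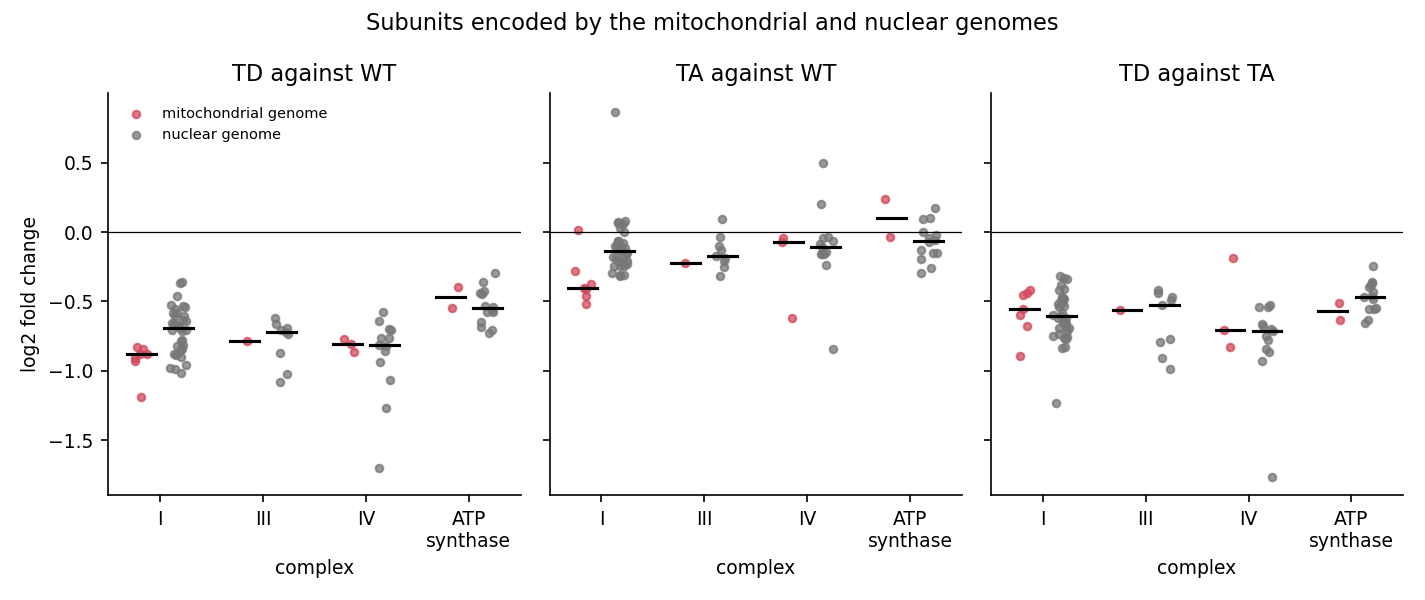
Log2 fold change of subunits of complexes I, III and IV and ATP synthase encoded by the mitochondrial or the nuclear genome in the 3 comparisons, with black bars at the medians. In TD against WT the medians of both genomes lie between -0.47 and -0.88, and in TA against WT the nuclear medians lie between -0.17 and -0.064. The mitochondrial ATP synthase median covers only mt-Atp6 and mt-Atp8, both inside the span of the nuclear copy.

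Cell type markers moved with the genotypes, and in RNA of a whole culture fewer cells of a type and less RNA per cell cannot be told apart. Between TD and WT 10 of 12 adipocyte markers fell, and their sum was 24629 to 27708 CPM in WT, 22675 to 29774 CPM in TA and 16874 to 19308 CPM in TD. Higher were 11 of 12 skeletal muscle markers, 6 of 7 endothelial markers, 5 of 6 markers of fibroblasts and preadipocytes, and 1 of 9 macrophage markers. Over all genes 14.2% were lower and 15.1% higher, so the macrophage share was below that of all genes. Endothelial markers summed to 26.2 to 55.5 CPM in WT, 47.9 to 88.2 CPM in TA and 103 to 130 CPM in TD, those of fibroblasts and preadipocytes to 3264 to 3963, 2976 to 5228 and 4717 to 7070 CPM, and those of macrophages to 269 to 764, 134 to 558 and 567 to 778 CPM. None of the 5 marker lists had a gene at 0 in every library. In TA against WT 1 adipocyte marker was lower and 1 higher, and 6 muscle, 4 endothelial and 3 fibroblast and preadipocyte markers were higher, where 4.41% of all genes were lower and 6.72% higher. Between TD and TA 9 of 12 adipocyte markers were lower and 1 higher, with a median log2 fold change of -0.49, and 5 muscle, 3 endothelial, 3 fibroblast and preadipocyte and 2 macrophage markers were higher. Over all genes 9.37% were lower and 7.33% higher there. Without TD replicates 3 and 4, 6 adipocyte, 8 muscle, 6 endothelial and 2 fibroblast and preadipocyte markers were called in TD against WT. Over all genes 1516 of 15673 were then called, 679 of them lower. In TD against TA the same omission left 4 adipocyte markers lower and 1 higher, and no marker of the other lists was called. Of all 15673 genes 634 were then called there, 448 of them lower. With 1 library left out, the muscle markers called higher in TD against TA ran from 0 to 9 of 12. Those of macrophages ran from 0 to 9 of 9, where 1422 to 3521 of all genes were called. The part of the cell makeup in the mitochondrial values was not tested.

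With TD replicates 3 and 4 both left out, 8 members fell in TD against WT, with a median of the mRNAs of -0.66, and 3 in TD against TA, with a median of -0.40. The 8 were mt-Tp, mt-Nd1, mt-Nd4, mt-Nd5, mt-Co1, mt-Co2, mt-Co3 and mt-Cytb. The calls of mt-Nd2, mt-Nd4l, mt-Nd6, mt-Atp6 and mt-Rnr2 were lost, with an adjusted p of 0.0858 to 0.285. Calls fell over all genes as well. In TD against WT 679 of 15673 genes were then lower, where 2142 of 15117 were with all libraries. In TD against TA 448 of 15673 were lower, where 1416 of 15117 were with all libraries.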

How the data were processed

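Total RNA of the 12 cultures was sequenced on an Illumina NovaSeq instrument. The authors aligned the reads to GRCm38 with HISAT2 and deposited counts of reads per gene without normalization. The submitters' processing notes also name bcl2fastq 2.17.1.14, cutadapt 1.9.1 and HTSeq 0.6.1, and HISAT2 is given there as 2.0.1. Strand, overlap and multiple alignment settings are not given in the sources used here. Genotypes and replicate numbers were taken from the labels. The table equalled the 12 files of single libraries, and no gene symbol was blank. In each of 18 pairs of replicates the counts differed beyond sampling noise (chi-square per degree of freedom 4.95 to 38.7).

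The members and gene lists were chosen with earlier results of these data known. Positions and sequences were taken from GENCODE M21, which held 55480 of 55573 identifiers (99.8%). Copies were found with blastn 2.17.0.

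R 4.3.3 with edgeR 4.0.16 was used. Genes were kept by filterByExpr (minimum count 10, total 15), scaled by TMM (factors 0.957 to 1.04) and fitted by a quasi-likelihood model over all 12 libraries. Tests were two-sided, with Benjamini-Hochberg adjustment over 15117 genes. CPM use the TMM-scaled library size, while shares and levels per length use the raw total. Named are all mRNAs and rRNAs, the tRNA that was tested, the nuclear pseudogene with the most counts and, of the nuclear genes of mitochondrial expression, up to 3 called genes per direction with the largest changes and at least 5 CPM in the higher genotype. Gm28661, Gm28438 and Gm11410 were added after their alignments were seen. Prorp, Ndufb1 and Atp5pb had no row under these symbols. In simulated data for TD against WT, with 200 of 15117 genes changed and 14905 tested, 93.5% of genes changed by a log2 of 1 and 46.7% of those changed by 0.5 were called, and 5.26% of calls were false. In the data themselves 4418 of 15117 genes were called in this comparison. Whether these percentages hold for the members, whose standard errors in TD against WT ran from 0.119 (mt-Co2) to 0.476 (mt-Atp8), was not tested. Alternatives were DESeq2 1.42.0, other scalings and filters, other denominators of the share, each library left out, and the replicate number as a block. Leaving out TD replicates 3 and 4 together was added after the data were seen.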

Additional observations from a re-analysis of the deposited data

Results flagged for a closer look

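In each group of 4 libraries the gap of the highest or lowest value to its neighbour was compared with the range by Dixon's test. Of 117 groups 3 were beyond its critical value, a smaller share than the about 1 in 20 that chance gives. Those of TA draw on the same rRNA counts. The rRNA share of TA replicate 4 was 0.104% of counts, where the other TA libraries had 0.187 to 0.199%. The same library had 86.8 counts of mt-Rnr1 per 100 of mt-Rnr2, where the others had 93.4 to 94.8. In WT, replicate 3 had 0.792 CPM of mt-Atp8 against 0.570 to 0.602 CPM, which is 16 counts against 11 or 12.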

How the results depend on the processing

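The median of the mRNAs stayed below 0 in each comparison under every alternative. With each library left out in turn, members called lower ran from 11 to 14 in TD against WT, from 1 to 4 for TA against WT, and from 4 to 12 for TD against TA. In the same order, 1489 to 2271, 460 to 757 and 843 to 1751 of all genes were lower. Without the low-count filter TA against WT had 8 and TD against TA had 11, and the cause was not tested. Over all genes 992 and 1416 of 29115 were lower in these comparisons without the filter. Leaving out TD replicates 3 and 4, so that 2 TD libraries remained, gave 8 for TD against WT and 3 for TD against TA. Over all genes 679 and 448 of 15673 were then lower. DESeq2 called 13, 4 and 8 in the 3 comparisons and scaling without the mitochondrial genes 13, 3 and 8. Over all 15117 genes DESeq2 called 2352, 851 and 1651 as lower, and that scaling 2347, 671 and 1548.

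In TA against WT mt-Nd3 had a log2 fold change of 0.013 that became -0.0015 without the low-count filter and -0.0046 with the replicate block. Its sign also changed without single libraries, with a range of -0.14 to 0.23, as did that of mt-Rnr1 (-0.19 to 0.090), mt-Atp8 (-0.18 to 0.54), mt-Atp6 (-0.14 to 0.10) and mt-Co3 (-0.13 to 0.018). Of the calls in TD against TA, mt-Nd4 was also lost with library totals only (adjusted p = 0.0696), and mt-Nd4 or mt-Nd5 without single libraries (up to 0.150). No member tested was called higher under any alternative, although the filters changed which members were tested.

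Same-numbered libraries did not deviate together (correlations -0.237 to 0.196), and libraries of different numbers had -0.257 to 0.264. This gave no sign of pairing, but with 4 libraries per genotype it cannot exclude it. With the replicate number as a block 15, 4 and 8 members were called, where 2035, 598 and 1370 of all 15117 genes were lower. In TD against WT the block added mt-Rnr1 (adjusted p = 0.0206) and mt-Nd3 (adjusted p = 0.0284).

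Genes inside the span of the nuclear copy had as few as 4 counts in a library. mt-Atp8, mt-Nd3 and mt-Nd4l have the widest errors and were left out by the filter of 10 counts in every library.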
